A study of Mus musculus with 12 samples.

Results

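The 37 genes described here encode the machinery of the cell division cycle: the cyclins, kinases and E2F factor of G1, the proteins that license and copy DNA, the enzymes that supply its nucleotides, and the kinases, checkpoint, kinetochore and spindle proteins of mitosis. They were chosen by gene symbol from a fixed list, and all 37 were found among the 55487 genes of the deposited liver RNA-seq tables. The libraries came from male mice of 16 to 18 months, in 4 groups of 3 biological replicates: fasted knockout, fed knockout, fasted control and fed control. Every mouse carried floxed Foxo3 alleles. Knockout mice also carried Alb-Cre, in which the albumin promoter drives the recombinase in hepatocytes, so that other liver cells keep the gene, and control mice were Cre-negative. Fasted mice had no food overnight and fed mice ate freely. The comparisons ask how the genotype, feeding and their combination bear on these genes in the liver of ageing mice.

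Cells that divide first make cyclin D and then cyclin E, which free E2F factors from the retinoblastoma family. E2F targets include the MCM helicase subunits, which CDT1 and CDC6 load onto replication origins before S phase, and the ribonucleotide reductase subunits. Mitotic genes such as Cdk1 and Ccnb2 are switched on later, through promoters that often hold CCAAT boxes and a cell cycle homology region (CHR). In the adult liver most hepatocytes are quiescent, and mitotic transcripts are scarce in whole tissue. FOXO factors restrain the cell cycle in many cell types, in part through the inhibitor p27.

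The promoter stretches of 5 of these genes are shown because they carry the 3 kinds of motif and belong to the genes whose values are described most fully. Each is the 150 bases before the RefSeq transcription start in build GRCm38.p6, written 5′ to 3′ on the strand of the gene. Capitals mark every match that lies wholly in the stretch to CCAAT, to the CHR letters TTTGAA or TTCGAA, and to the E2F letters TTTCCCGC, TTTCGCGC, TTTGCCGC or TTTGGCGC, each searched on both strands, and E2F matches that overlap run together.
Mki67 (chr7:135716380-135716529, minus strand): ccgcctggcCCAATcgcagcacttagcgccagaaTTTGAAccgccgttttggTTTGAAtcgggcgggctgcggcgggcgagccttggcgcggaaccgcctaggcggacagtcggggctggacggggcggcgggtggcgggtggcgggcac
Ccnb2 (chr9:70421555-70421704, minus strand): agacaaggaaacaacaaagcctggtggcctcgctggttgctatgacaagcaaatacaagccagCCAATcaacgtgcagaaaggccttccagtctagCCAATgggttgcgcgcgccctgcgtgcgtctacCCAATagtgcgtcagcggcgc
Mcm6 (chr1:128359706-128359855, minus strand): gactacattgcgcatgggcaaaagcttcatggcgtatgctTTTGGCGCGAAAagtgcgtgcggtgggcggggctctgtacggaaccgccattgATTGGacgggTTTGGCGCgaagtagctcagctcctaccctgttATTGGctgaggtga
Mcm5 (chr8:75109359-75109508, plus strand): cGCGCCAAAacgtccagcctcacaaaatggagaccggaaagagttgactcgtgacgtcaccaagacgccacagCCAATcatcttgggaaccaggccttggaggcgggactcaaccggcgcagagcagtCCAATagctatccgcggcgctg
Rrm2 (chr12:24708104-24708253, plus strand): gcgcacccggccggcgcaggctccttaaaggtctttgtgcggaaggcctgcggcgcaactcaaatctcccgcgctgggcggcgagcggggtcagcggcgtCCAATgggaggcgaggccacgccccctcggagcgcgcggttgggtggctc
The mitotic markers Mki67 and Ccnb2 hold CCAAT boxes without an E2F match, and the replication genes Mcm6 and Mcm5 hold both. The CHR match of Ccnb2 starts 167 bases before its transcription start, outside the stretch shown.

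The same letters were counted in the 250 bases before the start of the 30 member genes that the RefSeq table holds. The table has no entry for Aurkb, Ccna2, Ccnd1, Ccne2, Kif20a, Mcm4 and Tpx2. An E2F match was present in 5 of the 30 genes (Cdc6, Cdk1, Mcm5, Mcm6 and Mcm7), and in 1.86% of all 32851 promoters. A CHR match was present in 11 of the 30 genes and in 17.1% of all promoters, and a CCAAT match in 23 of the 30 genes and in 33.8% of all promoters. By role, an E2F match was found in 1 of 16 mitotic genes and in 4 of 14 genes of G1 and replication. A CHR match was found in 8 of the 16 mitotic genes and in 3 of the 14 genes of G1 and replication. A match says only that these letters are present.

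Libraries held 17520058 to 22414976 counts, and 15862 genes had enough counts to be tested. Foxo3 was at 46.6 to 53.6 CPM (counts scaled to a library of 1000000) in fasted knockout, 58.8 to 62.2 CPM in fed knockout, 38.1 to 44.3 CPM in fasted control and 44.5 to 50.4 CPM in fed control livers. It was thus not lower in the libraries labelled knockout (log2 difference 0.33, adjusted p = 0.453 in fasted and 0.36, adjusted p = 0.683 in fed livers, edgeR). Reads from exons that recombination leaves behind also count, which makes a gene-level value no check of the genotype. Why Foxo3 was higher in the libraries labelled knockout was not tested. The summed CPM of 7 hepatocyte markers was 64570 to 115100 in the 12 libraries, and no hepatocyte marker was at 0.

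Most of these genes were expressed at a low level. On the length-scaled TPM scale, only Pcna and Ccnd1 averaged 10 or more over the 12 libraries, at 25.7 and 15 TPM. PCNA is the sliding clamp of the replication fork, and cyclin D1 drives entry into the cycle. Another 19 genes averaged from 1 to 10 TPM, led by the helicase subunits Mcm7 and Mcm4 (7.29 and 4.14 TPM) and by Rrm2 (3.99 TPM), the regulated subunit of ribonucleotide reductase. The other 16 averaged under 1 TPM, among them Mki67 (0.797 TPM), the gene of the proliferation antigen Ki-67, and Top2a (0.628 TPM), the topoisomerase that untangles replicated chromosomes. The checkpoint kinase gene Bub1 was the lowest, at 0.0913 TPM. The mitotic and spindle genes thus made up most of the low end, and the G1 and replication genes most of the upper end.

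At this depth 35 of the 37 genes could be tested. Ccnb1, which encodes the cyclin partner of CDK1, had 1 to 12 counts in 11 libraries and 54 counts in fed control replicate 3 (exact 95% Poisson interval 40.6 to 70.5). Bub1 had 0 counts in all fasted knockout libraries, 1, 6 and 1 in those of fed knockout mice, 0, 0 and 9 in fasted controls, and 4, 5 and 13 in fed controls. The exact 95% interval of a count of 0 reaches 3.69 counts. As a separate floor, 3 counts are used for a count of 0, which is 0.134 to 0.163 CPM in the fasted knockout libraries, and intervals and floor cover counting error only. Of the 37 genes, 17 overlap another annotated gene, such as Kif20a with Cdc23 and Ccna2 with Exosc9. The strand setting of the counting is not given in the sources used here, so reads of such pairs may be mixed. The processed copies Ccnb2-ps and Pcna-ps2 had 7 to 25 and 1 to 6 counts.

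**Figure D1:**
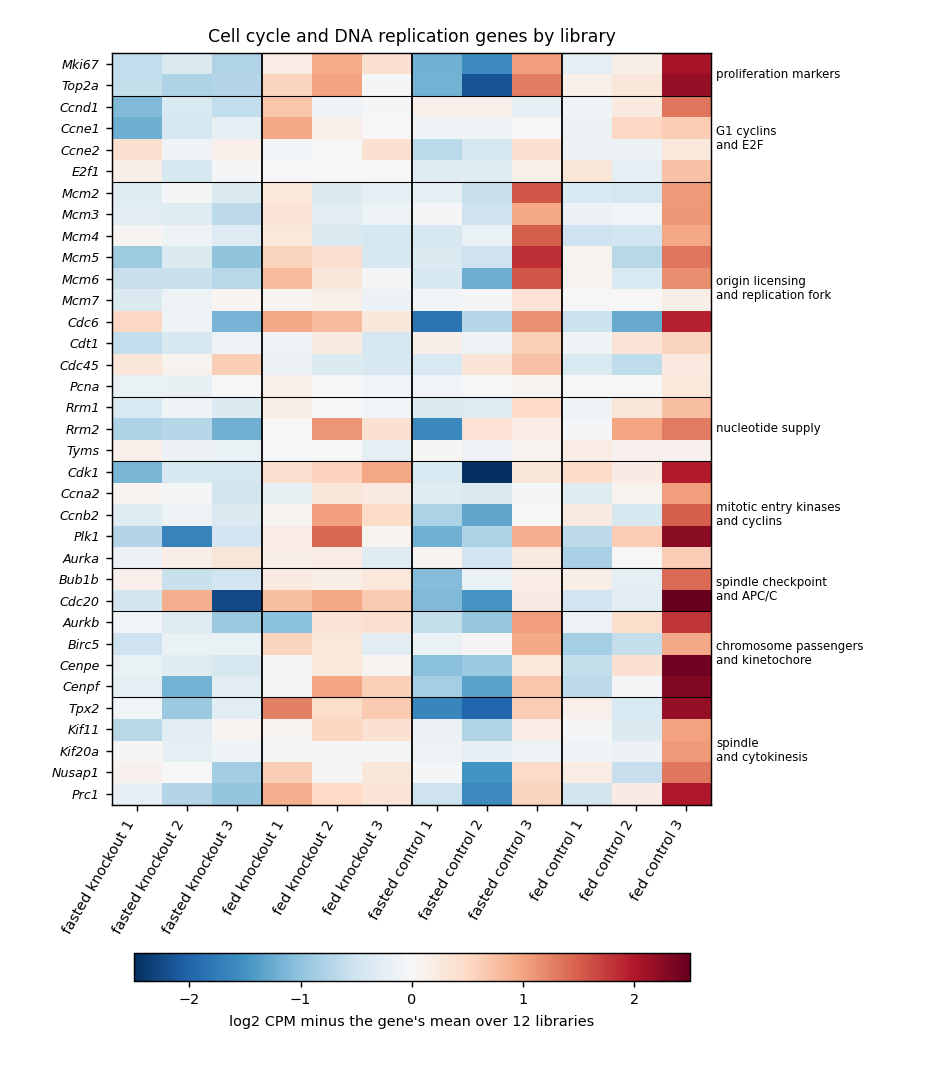
Each row is 1 of the 35 tested genes, ordered by role, each column is 1 library, and colour gives the log2 CPM minus the mean of that gene over all 12 libraries. The column of fed control replicate 3 is high for nearly every gene, with a median of 1.17, and that of fasted control replicate 3 is high for most replication genes, while the medians of the 6 knockout columns lie between -0.359 and 0.254.

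Control replicates 3 of both feeding states stood apart from the other 10 libraries. In fasted control replicate 3, 32 of the 35 tested genes lay above both other fasted controls, beside 34.7% of all tested genes, with a median log2 difference of 1.05. In fed control replicate 3, 34 of 35 lay above both other fed controls, beside 39.8% of all tested genes, with a median log2 difference of 1.45. Fasted control replicate 3 had the highest level of all 12 libraries for 8 of the 35 genes (12% of all tested genes) and fed control replicate 3 for 24 (18.2% of all tested genes). Mki67 reached 5.11 CPM in fasted control replicate 3 and 10.4 CPM in fed control replicate 3, and 0.735 to 4.67 CPM in the other 10 libraries. In bulk tissue, more or fewer cycling cells cannot be told apart from more or less RNA per cell.

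These libraries did not share 1 profile. Most mitotic genes were higher in fed control replicate 3, with Birc5 at nearly the same level in both (2.24 CPM in fasted and 2.22 CPM in fed control replicate 3). Cdc20, the activator of the anaphase-promoting complex, was at 0.759 CPM in fasted control replicate 3 and 4.4 CPM in fed control replicate 3, 5.8 times the level. The kinesin gene Cenpe, which links kinetochores to microtubules, was at 0.506 CPM in fasted control replicate 3 and 2.63 CPM in fed control replicate 3. The helicase genes other than Mcm3 were highest in fasted control replicate 3. Mcm2 was at 13.6 CPM in fasted control replicate 3, 9.58 CPM in fed control replicate 3 and 3 to 5.49 CPM elsewhere. Mcm5 was at 10.4 CPM in fasted control replicate 3, 7.45 CPM in fed control replicate 3 and 1.38 to 4.29 CPM elsewhere. Of the 10 licensing and fork genes, 3 were higher in fed than in fasted control replicate 3, while all 5 mitotic kinase and cyclin genes and all 5 spindle and cytokinesis genes that were tested were higher in fed control replicate 3. Over the 11 libraries other than fed control replicate 3, Cdk1 did not exceed 1.67 CPM, and it was 3.45 CPM in that library. The libraries were single, so no test was made between them.

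Markers of other cells also differed in these libraries. In fasted control replicate 3 the sum of 7 listed B and plasma cell markers was 379 CPM (128 to 244 CPM in the others). That of T and NK cell markers was 11.5 CPM, within the range of the others (3.23 to 17.3 CPM). In fed control replicate 3 the summed level of 8 stellate cell and fibroblast markers was 479 CPM (70.7 to 184 CPM in the other 11), that of 10 interferon response genes 611 CPM (169 to 282 CPM), that of 8 infiltrating monocyte and macrophage markers 269 CPM (97.4 to 206 CPM), that of 6 listed cholangiocyte markers 141 CPM (22.5 to 60.8 CPM) and that of 10 listed T and NK cell markers 17.3 CPM (3.23 to 11.5 CPM). The cholangiocyte sum was not matched by the median log2 CPM of its 4 tested genes, relative to the gene means. This was 0.225 in fed control replicate 3, below fed knockout replicate 1 (0.643) and fasted control replicate 2 (0.415). The 7 hepatocyte markers summed to 65580 CPM in fasted control replicate 3 and 64570 CPM in fed control replicate 3, the lowest values of the 12 libraries. Their median was lowest in fed control replicate 3 (-0.751), while fasted control replicate 3 (-0.0831) lay above fasted knockout replicate 1 (-0.234). No listed marker was at 0 in all libraries. The part of these cells in the values below was not tested.

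**Figure D2:**
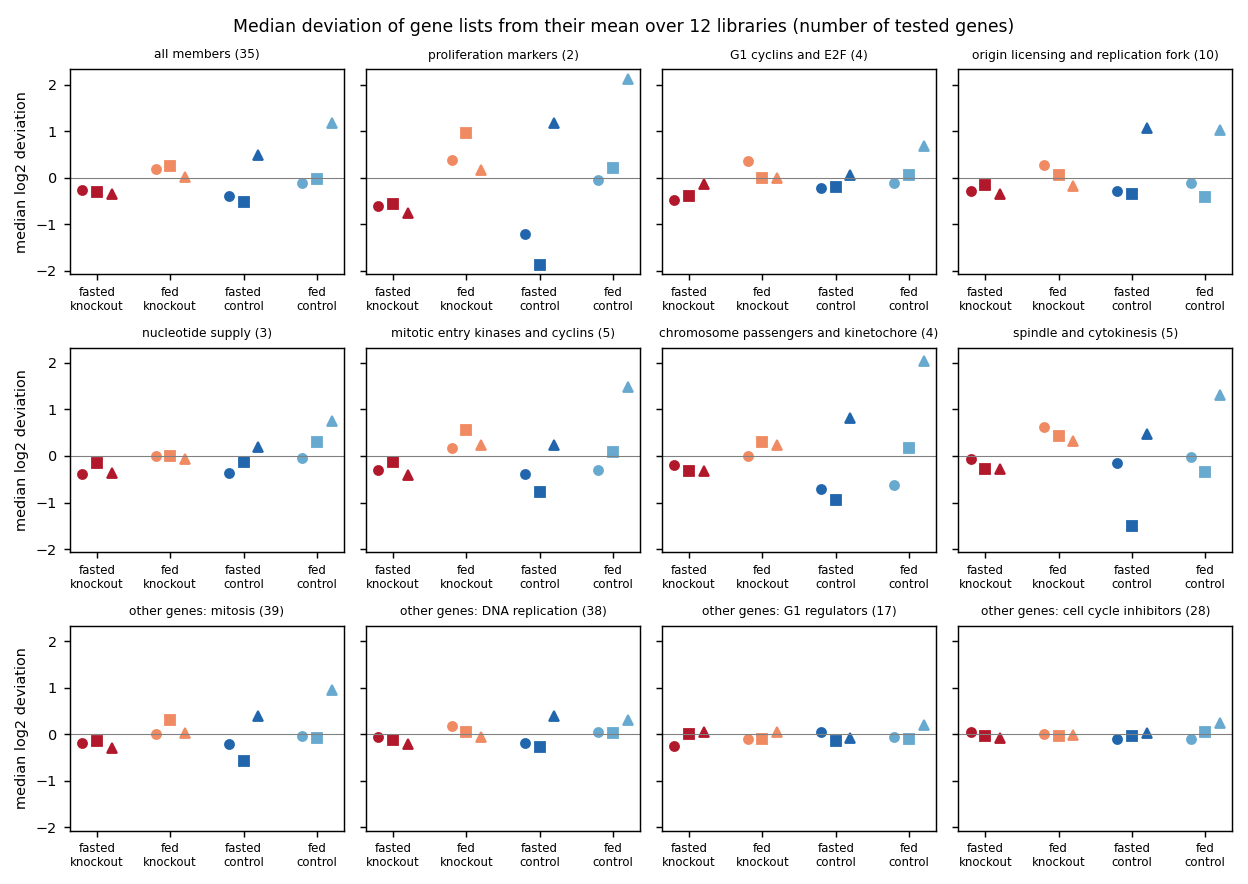
The panels show all 35 tested members, 7 of their role groups and 4 lists of other cell cycle genes, with the median log2 CPM relative to the gene means over 12 libraries on the vertical axis and 1 point per library, in the order fasted knockout, fed knockout, fasted control and fed control. Over all 35 genes the medians of fasted knockout libraries were -0.257, -0.296 and -0.359 and those of fed knockout libraries 0.183, 0.254 and 0.0137, while the control groups each held 1 library far above the other two.

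Most members were fitted lower in fasted than in fed livers in both genotypes, while 0 passed the threshold in either. In knockout livers, fasted against fed, the median fitted log2 change of the 35 genes was -0.54, beside -0.0059 over all tested genes, and 30 of 35 were fitted lower. By edgeR 0 members passed an adjusted p of 0.05, beside 2.48% of all tested genes, and 3 had an unadjusted p under 0.05 (Rrm2, Ccne1 and Ccnd1, beside 14.6%). DESeq2 called 1 (Rrm2), beside 5.07% of the genes it gave an adjusted p, and limma-voom 0, beside 360 of 15862 genes. In 15 genes every fasted knockout library lay below every fed knockout library, beside 11.8% of all tested genes. In 1 gene, Cdc45, every one lay above, beside 11.5%. Of the 11 marker lists, the summed levels of 10 overlapped between these groups. That of B and plasma cell markers did not, at 127.7, 167.5 and 167.3 CPM in fasted knockout and 243.9, 207 and 202.8 CPM in fed knockout livers. The median log2 CPM of its 6 tested genes, relative to the gene means over 12 libraries, did overlap. It was -0.149, -0.859 and -0.577 in fasted knockout and 0.113, 0.0437 and -0.29 in fed knockout livers. The part of these cells in the values was not tested.

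The proliferation markers belonged to those 15. Mki67 (ENSMUSG00000031004, chr7:135689784-135716361 of mm10) was at 1.55, 1.84 and 1.38 CPM in fasted knockout and 2.77, 4.67 and 3.18 CPM in fed knockout livers. The groups did not overlap, and the log2 change was -1.14 (adjusted p = 0.56). Top2a was at 1.02, 0.899 and 0.921 CPM in fasted knockout and 2.4, 3.32 and 1.56 CPM in fed knockout livers. These groups did not overlap either (log2 change -1.35, adjusted p = 0.535). Without the 2 control libraries that stand apart, Mki67 then had a change of -1.14 (SE 0.268, adjusted p = 0.0387, edgeR) and Top2a one of -1.35 (SE 0.339, adjusted p = 0.0504), where the SE with all libraries were 0.775 for Mki67 and 0.867 for Top2a. These 2 libraries were left out because the members were high in them, which lowers the SE of the members. The smaller p-values are therefore no separate support.

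Among the members, Rrm2, Ccne1 and Ccnd1 gave the smallest p in knockout livers. Rrm2 (ENSMUSG00000020649, chr12:24708241-24714146) was at 2.12, 2.2 and 1.55 CPM in fasted knockout and 3.71, 8.1 and 4.84 CPM in fed knockout livers. The lowest fed library was above the highest fasted one, and the log2 change was -1.49 (SE 0.505, adjusted p = 0.179). Ccne1, which encodes cyclin E1, was at 0.442, 0.854 and 0.979 CPM in fasted knockout and 2.35, 1.29 and 1.18 CPM in fed knockout livers (log2 change -1.10, adjusted p = 0.187). Ccnd1 was at 11.8, 19.8 and 16.8 CPM in fasted knockout and 41.7, 24.1 and 24.8 CPM in fed knockout livers (log2 change -0.91, adjusted p = 0.294). Each of these genes had separate groups, yet none passed the threshold over all genes. The other genes of G1 and nucleotide supply had fitted log2 changes of 0.04 (Ccne2), -0.08 (E2f1), -0.31 (Rrm1) and 0.02 (Tyms).

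The replication genes of knockout livers were uneven. Mcm6 was at 2.92, 2.92 and 2.65 CPM in fasted knockout and 7.63, 5.34 and 4.2 CPM in fed knockout livers (log2 change -1.01, adjusted p = 0.542), with no overlap. Mcm7, its partner in the same hexamer, was at 10, 11.9 and 13.5 CPM in fasted knockout and 13.3, 14.2 and 11.7 CPM in fed knockout livers, and its groups overlapped (log2 change -0.15). Pcna had a fitted log2 change of -0.13 (adjusted p = 0.61). Cdc45, which joins the MCM ring to form the active helicase, ran the other way, at 1.9, 1.62 and 2.36 CPM in fasted knockout and 1.36, 1.18 and 1.13 CPM in fed knockout livers (log2 change 0.67, adjusted p = 0.408). Of the 10 licensing and fork genes, 8 were fitted lower in fasted knockout livers, with a median of -0.24.

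Most mitotic genes of knockout livers were fitted lower in the fasted group, with few counts behind each and 0 past the threshold. Cdk1, the kinase that starts mitosis, was at 0.31, 0.584 and 0.576 CPM in fasted knockout and 1.1, 1.24 and 1.67 CPM in fed knockout livers (log2 change -1.45, adjusted p = 0.356). Ccnb2, cyclin B2, was at 0.663, 0.764 and 0.633 CPM in fasted knockout and 0.889, 1.8 and 1.18 CPM in fed knockout livers (log2 change -0.90, adjusted p = 0.483). The groups of both genes were separate. Median fitted changes were -0.90 over 5 mitotic kinases and cyclins, -0.53 over 4 passenger and kinetochore genes and -0.66 over 5 spindle and cytokinesis genes. Tpx2, an activator of Aurora A on the spindle, was at 0.486, 0.225 and 0.403 CPM in fasted knockout and 1.36, 0.731 and 0.861 CPM in fed knockout livers (log2 change -1.40, adjusted p = 0.517). Aurka itself had a fitted change of 0.08 and the kinesin gene Kif20a one of -0.09, both with overlapping groups.

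**Figure D3:**
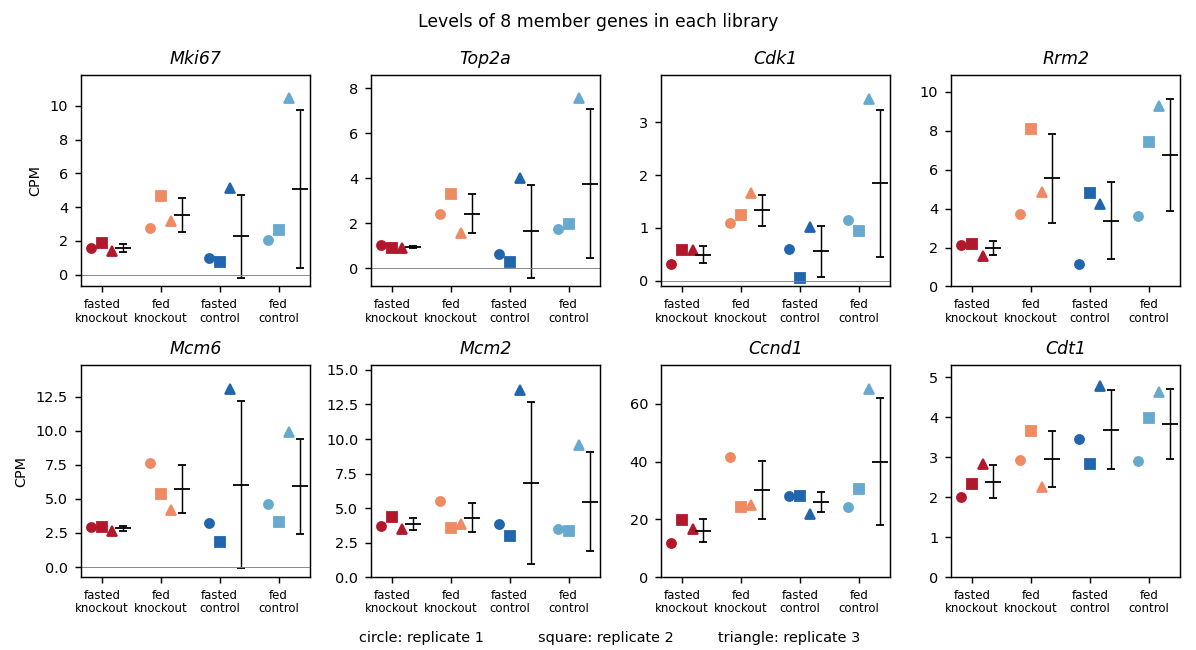
Levels in CPM of 8 genes in each library (circle, square and triangle for replicates 1, 2 and 3), with the group mean and SD (black bars), in the order fasted knockout, fed knockout, fasted control and fed control. Mki67 averaged 1.59 CPM in fasted knockout and 3.54 CPM in fed knockout livers, and in both control groups its replicate 3 lies far above the other libraries of the group.

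In control livers the same comparison rested on groups with a wide spread. Fasted against fed, the median fitted log2 change was -0.56, beside -0.0035 over all tested genes, and 28 of 35 genes were fitted lower. By edgeR 0 members passed the threshold, beside 4.14% of all tested genes, and 3 had an unadjusted p under 0.05 (Cenpe, Cdk1 and Ccnb2, beside 19.4%). DESeq2 called 0 members, beside 1188 of the 15122 genes it gave an adjusted p. With limma-voom 0 were called, beside 614 of 15862 genes. Only Tyms, which encodes the enzyme that makes thymidylate, was lower with separate groups, beside 10.9% of all tested genes, and 0 members were higher with separate groups, beside 11.5%. Tyms was at 5.29, 4.7 and 5.48 CPM in fasted control and 5.89, 5.57 and 5.54 CPM in fed control livers. Of the 11 marker lists only the stellate cell and fibroblast sum had separate groups here, at 130.5, 87.91 and 101.5 CPM in fasted control and 146.6, 183.7 and 479 CPM in fed control livers, and its part was not tested.

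The roles differed in the control fit. Mki67 was at 0.989, 0.735 and 5.11 CPM in fasted control and 2.04, 2.67 and 10.4 CPM in fed control livers (log2 change -1.12, adjusted p = 0.45). Within each group replicate 3 was the high one. Cdk1 was at 0.593, 0.0566 and 1.01 CPM in fasted control and 1.14, 0.935 and 3.45 CPM in fed control livers (log2 change -1.67, SE 0.652, adjusted p = 0.179). Rrm2 was at 1.14, 4.81 and 4.22 CPM in fasted control and 3.61, 7.44 and 9.26 CPM in fed control livers (log2 change -1.0, adjusted p = 0.284), and its groups overlapped. Of the 10 licensing and fork genes, 6 were fitted higher in fasted controls, with a median of 0.04, and 5 of 5 tested mitotic kinases and cyclins were fitted lower, with a median of -1.36. Mcm6 was at 3.26, 1.81 and 13.1 CPM in fasted control and 4.61, 3.32 and 9.9 CPM in fed control livers.

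Leaving out both control replicates 3 changed these control values in part. The median fitted change was then -0.42, with 29 of 35 genes lower, and the licensing and fork genes had a median of -0.10. In 18 genes both fasted controls lay below both fed controls, beside 22.8% of all tested genes, and in 2 both lay above, beside 24.4%. By edgeR 0 members passed, beside 1.52% of all tested genes, with 5 at an unadjusted p under 0.05, beside 14.9%. Top2a came closest, at 0.643 and 0.283 CPM in fasted control and 1.76 and 1.96 CPM in fed control livers (log2 change -1.98, SE 0.461, adjusted p = 0.0599). In knockout livers the same fit gave a median of -0.53 and 1 called gene, Mki67, beside 3.93% of all tested genes. Its p-values are descriptive only, as the left-out libraries were picked by the levels of the members.

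The mean of the fasting changes over both genotypes, a comparison added after seeing the data, gave a median of -0.61, beside -0.01 over all tested genes. In it 31 of 35 genes were fitted lower. By edgeR 1 member was called, beside 9.07% of all tested genes: Rrm2 fell, with a log2 change of -1.25 (SE 0.349, adjusted p = 0.0476). Fasted livers held 1.14 to 4.81 CPM of Rrm2 and fed livers 3.61 to 9.26 CPM. Of all members 11 had an unadjusted p under 0.05, 10 lower and 1 (Cdc45) higher, beside 23.6% of all tested genes. The call of Rrm2 was lost in 15 of 21 alternatives (adjusted p from 0.00316 to 0.144). DESeq2 called 4 members (Cdk1, Rrm2, Ccnd1 and Ccnb2), beside 11.3% of the genes it gave an adjusted p. With limma-voom 0 were called, beside 1387 of 15862 genes. Without both control replicates 3, edgeR called 5 members, beside 8.67% of all tested genes: Top2a (log2 change -1.66, adjusted p = 0.00505), Mki67 (-1.29, 0.00513), Tpx2 (-1.95, 0.0185), Mcm6 (-0.83, 0.0386) and Cdk1 (-1.53, 0.0415). Rrm2 then had an adjusted p of 0.112. As the left-out libraries were picked by the levels of these members, the calls of that fit are no separate support.

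Between the genotypes the sign of the members' median turned with the high control libraries. In fed livers, knockout against control, the median fitted log2 difference was -0.32, beside -0.01 over all tested genes, and 32 of 35 genes were fitted lower. By edgeR 0 members passed, beside 0% of all tested genes, and 0 had an unadjusted p under 0.05, beside 6.12%. The smallest adjusted p was 0.82. DESeq2 gave no member an adjusted p in this comparison, and limma-voom called 0, beside 0 of 15862 genes. Without both control replicates 3 the median was 0.34, with 29 of 35 genes fitted higher, 0 called and 2 (Birc5 and Cdc6, both higher) at an unadjusted p under 0.05, beside 5.13% of all tested genes. In 12 genes every fed knockout library then lay above both fed controls, beside 12.9% of all tested genes, and in 1 every one lay below, beside 12.4%. The left-out control libraries were picked because the members were high in them, which by itself raises these differences. The sign, median and counts of that fit are therefore descriptive only.

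Mki67 shows this turn. In fed livers it was at 2.77, 4.67 and 3.18 CPM in knockout and 2.04, 2.67 and 10.4 CPM in control livers, a log2 difference of -0.52 (adjusted p = 0.96). All fed knockout libraries lay above fed control replicates 1 and 2 and below replicate 3. Without both control replicates 3 the difference was 0.58 (SE 0.293, adjusted p = 0.902). Tpx2 was at 1.36, 0.731 and 0.861 CPM in knockout and 0.57, 0.374 and 2.68 CPM in control livers of fed mice. Cdc6, which helps load the helicase, had 11, 9 and 6 counts in knockout against 3, 1 and 27 counts in control livers of fed mice. Tyms was the 1 gene with separate groups in all fed libraries, at 5.17, 5.17 and 4.41 CPM in knockout and 5.89, 5.57 and 5.54 CPM in control livers, beside 5.99% of all tested genes that were lower without overlap (log2 difference -0.20, adjusted p = 0.898). In 0 genes was every fed knockout library the higher, beside 6.3%. The summed neutrophil markers were higher without overlap, at 4.18, 9.84 and 7.11 CPM in fed knockout and 3.04, 2.06 and 3.22 CPM in fed control livers, and their part was not tested.

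In fasted livers, knockout against control, the median was -0.24 beside -0.01 over all tested genes, and 25 of 35 genes were fitted lower. By edgeR 0 members passed, beside 0.0315% of all tested genes, and 1 had an unadjusted p under 0.05, beside 9.01%. DESeq2 called 0 members, beside 42 of the 14047 genes it gave an adjusted p. With limma-voom 0 were called, beside 1 of 15862 genes. The gene with an unadjusted p under 0.05 was Cdt1, the licensing factor, at 1.99, 2.34 and 2.82 CPM in knockout and 3.46, 2.83 and 4.77 CPM in control livers (log2 difference -0.64, SE 0.272, adjusted p = 0.527). Every fasted knockout library lay just below every fasted control library. The same held for Ccnd1, Ccne1 and Birc5, the gene of the passenger protein survivin, so 4 genes were lower without overlap, beside 7.2% of all tested genes, and 0 were higher without overlap, beside 6.82%. Ccnd1 was at 11.8, 19.8 and 16.8 CPM in knockout and 28.2, 28 and 21.8 CPM in control livers (log2 difference -0.69, adjusted p = 0.617). The summed T and NK cell markers were also lower without overlap, at 4.95, 3.24 and 4.9 CPM in knockout and 7.81, 8.88 and 11.52 CPM in control livers, and their part was not tested.

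Helicase genes were among the largest fitted differences of fasted livers, and theirs rested on 1 library. Mcm5 was at 1.5, 2.25 and 1.38 CPM in knockout and 2.22, 1.98 and 10.4 CPM in control livers (log2 difference -1.52, SE 0.706, adjusted p = 0.569). Mcm2 was at 3.67, 4.36 and 3.51 CPM in knockout and 3.86, 3 and 13.6 CPM in control livers. In both genes fasted control replicates 1 and 2 lay within or below the range of the knockout libraries. Without both control replicates 3 the median of the 10 licensing and fork genes was 0.04, against -0.66 with them, and that of all 35 members 0.22. The members with an unadjusted p under 0.05 were then Tpx2, Ccne2, Mki67 and Top2a, fitted higher, and Ccnd1, fitted lower (log2 difference -0.80, adjusted p = 0.536), beside 8.61% of all tested genes. By edgeR 0 passed the threshold, beside 0.0126% of all tested genes. Leaving out controls picked for high levels of the members raises these differences by itself.

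Averaged over both feeding states, the median difference of knockout against control was -0.26 (31 of 35 fitted lower). By edgeR 0 members were called, beside 0.0126% of all tested genes, and 1 had an unadjusted p under 0.05 (Cdt1, beside 7.91%). DESeq2 called 0 members, beside 46 of the 15658 genes it gave an adjusted p. Cdt1 had a log2 difference of -0.51 (SE 0.192, adjusted p = 0.6). Without both control replicates 3 the median was 0.31, again with 0 members called and 7, all higher, at an unadjusted p under 0.05, beside 7.92% of all tested genes. Tpx2 then had the smallest adjusted p, 0.543 (log2 difference 1.6, SE 0.44). Cdt1 kept a negative fitted difference (-0.31, adjusted p = 0.721), as did Ccnd1 (-0.33, adjusted p = 0.721). The choice of the left-out controls by itself raises the differences of that fit.

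The interaction, which asks whether fasting differed between knockout and control livers, called 0 members by edgeR, beside 0.0063% of all tested genes. At an unadjusted p under 0.05 there were 0, beside 7.19%. DESeq2 called 0 members, beside 60 of the 19961 genes it gave an adjusted p. The median of the interaction over members was -0.01 in the fit, with 17 genes above 0 and 18 below. The smallest adjusted p was 0.841, for Cenpe (interaction 1.5, SE 1.11). Without both control replicates 3 the median was -0.09, and Birc5 (-1.25, adjusted p = 0.79) and Ccnd1 (-0.93, adjusted p = 0.793) had an unadjusted p under 0.05, beside 6.25% of all tested genes. Standard errors above 1 for genes such as Cenpe and Plk1 leave room for differences in either direction.

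**Figure D4:**
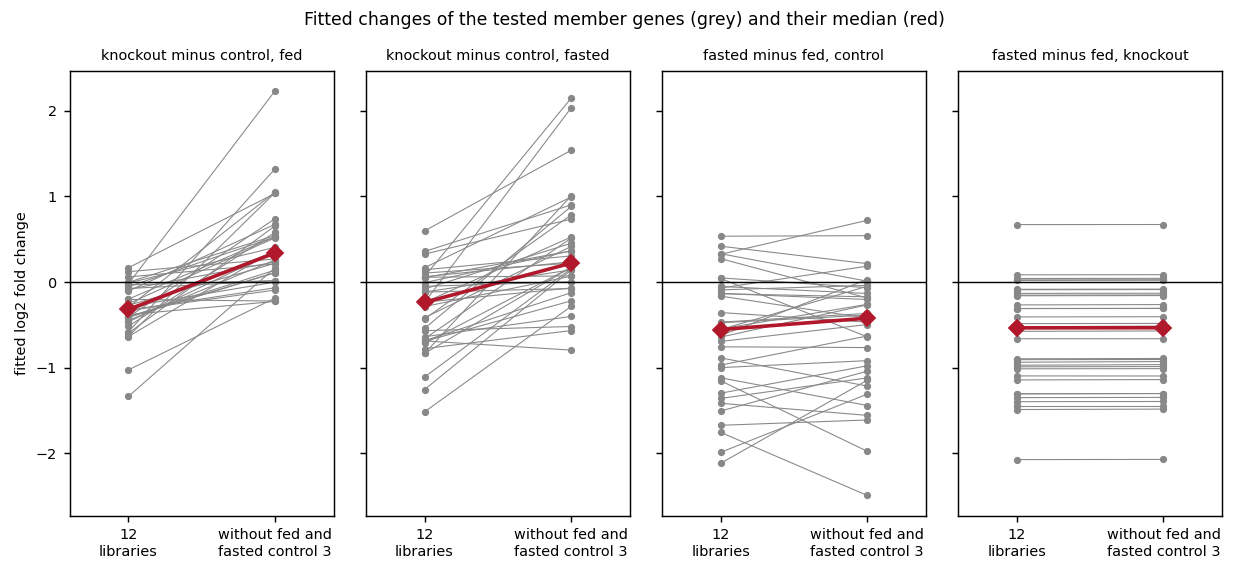
Fitted log2 changes of the 35 tested genes in the fit of all 12 libraries and in the fit without control replicates 3, for knockout against control and for fasted against fed. Each grey line joins the values of 1 gene and red marks the median. In fed livers 32 of 35 genotype differences were below 0 with all libraries and 29 of 35 above 0 without control replicates 3 (medians -0.32 and 0.34), and the medians of the fasting changes were below 0 in both fits (medians -0.54 and -0.53 in knockout, -0.56 and -0.42 in control livers). Control replicates 3 were picked because the members were high in them, so leaving them out raises the genotype differences by itself.

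Other genes of the cell cycle were read from lists that do not overlap with the members. Of 55 further mitosis genes, 39 were tested. In fasted against fed knockout livers 0 were called (median -0.51), beside 2.48% of all tested genes. In control livers 1 was called lower and 0 higher (median -0.58), beside 4.14% of all tested genes. Of 44 further replication genes, 38 were tested, and 0 were called in either genotype, beside the same shares (medians -0.25 in knockout and -0.07 in control livers). The called mitosis gene was Ckap2, a microtubule-associated protein, at 0.0494, 0 and 0.169 CPM in fasted control and 0.332, 0.701 and 2.27 CPM in fed control livers (adjusted p = 0.0347). With so few counts its fitted change is no measure of size, and it lost the call in 10 of 18 alternatives, 7 of them among the 12 in which 1 library was left out. DESeq2, another of the 18, gave it no adjusted p. It had no test with a filter of 1 CPM, on log2 TPM or with only the compared groups. In the mean over both genotypes Ckap2, Ect2, Hmmr and Cenpa were called lower, beside 9.07% of all tested genes called in either direction. Pola1, the catalytic subunit of DNA polymerase alpha, was also called lower (log2 change -0.83, adjusted p = 0.00816). Chaf1a, a subunit of the histone chaperone that follows the fork, was called higher (0.28, adjusted p = 0.0258).

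Cenpa, the centromeric histone, was at 1.59, 2.25 and 1.61 CPM in fasted knockout and 4.23, 3.15 and 3.66 CPM in fed knockout livers. In controls it was at 2.27, 2.49 and 3.97 CPM in fasted and 4.13, 3.65 and 5.95 CPM in fed livers, and its mean log2 change was -0.83 (adjusted p = 0.0182). Pola1 was at 3.01, 2.97 and 2.3 CPM in fasted knockout and 6.48, 5.34 and 4.36 CPM in fed knockout livers. In controls it was at 2.22, 2.38 and 3.75 CPM in fasted and 4.08, 4.63 and 4.99 CPM in fed livers. Neither gene had overlapping feeding groups in knockout livers, and Pola1 had none in control livers. Both had an adjusted p above 0.05 within each genotype (0.0859 and 0.0552 in knockout, 0.208 and 0.122 in control livers). Both passed in knockout livers without both control replicates 3 (Cenpa -1.01, adjusted p = 0.0288, and Pola1 -0.96, adjusted p = 0.0262), and neither did in control livers (0.221 and 0.102). That fit left out libraries picked by the levels of the members, so these p-values are descriptive only.

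Of 17 G1 regulators outside the member list, all tested, fasting called 0 in knockout livers, and 2 rose and 0 fell in control livers, beside 2.48% and 4.14% of all tested genes called in those comparisons. The 2 were Ccnd3, cyclin D3, and Cdk4, the kinase that D cyclins activate. In fasted against fed knockout livers their log2 changes were 0.21 (adjusted p = 0.383) and 0.30 (adjusted p = 0.153). Ccnd3 rose to 38.2, 37.1 and 41.1 CPM in fasted control, against 25.8, 23.3 and 23.9 CPM in fed control livers (log2 change 0.67, SE 0.105, adjusted p = 0.0045), and passed in all 22 alternatives. Cdk4 rose to 141, 163 and 149 CPM in fasted control, against 107, 113 and 96.9 CPM in fed control livers (log2 change 0.51, adjusted p = 0.013). It lost the call in 3 of 22 alternatives, with adjusted p of 0.0592 without fasted control replicate 2, 0.0783 with only the compared groups and 0.0719 without both control replicates 3. The interaction had an adjusted p of 0.582 for Ccnd3 and 0.825 for Cdk4. Ccnd1, the member of the same family, had fitted changes of -0.91 in knockout and -0.62 in control livers.

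Among 29 inhibitors and pocket proteins, 28 tested, fasting called 0 in knockout livers, and 1 fell and 0 rose in control livers, against the same shares of all tested genes. It was Gadd45a, a growth arrest and DNA damage gene and a known FOXO target. In knockout livers Gadd45a was at 6.9, 5.66 and 3.63 CPM fasted and 11.3, 12.3 and 7.91 CPM fed (log2 change -0.95, adjusted p = 0.057). In controls it fell to 2.67, 3.22 and 3.42 CPM in fasted control, against 10.4, 15.1 and 14.4 CPM in fed control livers (log2 change -2.10, SE 0.249, adjusted p = 0.0012), and passed in all 22 alternatives. The feeding groups did not overlap in either genotype, and the interaction missed the threshold (1.15, SE 0.341, adjusted p = 0.547). Cdkn1b, which encodes p27 and is named here after its values were seen, was at 20.2 to 23.2 CPM in fasted knockout, 20.9 to 22.2 CPM in fed knockout, 22.1 to 25 CPM in fasted control and 20.7 to 22.8 CPM in fed control livers, with adjusted p of 0.982 in fed and 0.693 in fasted livers for knockout against control. Knockout against control called 0 of the 122 tested genes of these 4 lists in fed livers, in fasted livers and in their mean, with and without control replicates 3. Of all tested genes these comparisons called 0%, 0.0315% and 0.0126% with all libraries. Without control replicates 3 the shares were 0%, 0.0126% and 0.0126%, so the counts of the lists are near those of all genes.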

How the data were processed

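Liver RNA was sequenced from 12 mice as strand-specific poly(A) libraries, per the labels' protocols. Per the submitters' processing notes, build mm10 was used with HISAT2 2.1.0 and featureCounts 1.6.3, alongside bcl2fastq 2.19, Trimmomatic 0.38 and DESeq2 1.24.0, with no roles stated. No source used here states settings or the annotation release. The deposited files are the authors' raw counts per gene and their TPM of these genes. The deposited TPM equal the counts divided by 1 fixed length per gene and rescaled (largest relative deviation 1.3e-07 over 12271 genes).

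Counts were tested with the quasi-likelihood test of edgeR 4.0.16 in R 4.3.3 (robust, TMM factors of 0.923 to 1.123, filterByExpr), with all 12 libraries in 1 fit and groups as contrasts. P-values were 2-sided and adjusted by Benjamini-Hochberg over 15862 genes within a comparison, with a threshold of 0.05. They set group differences, with 3 replicates a group, against the spread between these samples, estimated over all 12 libraries in the fit. CPM are TMM-scaled. Simulated counts with known changes in 200 genes were used to check the test. Alternatives were RLE factors, other filters, DESeq2 1.42.0, limma-voom and limma 3.58.1 on log2 TPM, only the compared groups, a replicate block and each library left out; leaving out both control replicates 3, and the mean fasting change, were added after seeing the data. Control replicates 3 were left out because the members themselves were high in them, so p-values, signs, medians and counts of that fit are descriptive only. No batch is labelled, so batch and group cannot be told apart.

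The members, lists and comparisons were chosen with earlier results of these data known. Any member could be named; of other cell cycle lists, genes past the threshold and the 3 with the smallest p in each comparison; of markers, the most abundant. Promoters and motif matches came from RefSeq GRCm38.p6.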

Additional observations from a re-analysis of the deposited data

How the results depend on the processing

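Over the alternatives tried, 295 of 326 recomputed counts of called members, medians and library levels kept their side or moved within the limits set. The median of the members turned sign without both control replicates 3 for knockout against control: 0.34 in fed, 0.22 in fasted livers and 0.31 in their mean. Those libraries were picked because the members were high in them, which raises this median by itself. With single libraries left out the median ranged from -0.56 to 0.33 in fed livers, from -0.47 to 0.20 in fasted livers and from -0.41 to 0.0136 in their mean, each highest without a control replicate 3. In fasted against fed knockout livers it ranged from -0.64 to -0.44, in control livers from -0.88 (without fasted control replicate 3) to -0.0357 (without fed control replicate 3), and for the interaction from -0.66 (without fed control replicate 3) to 0.50 (without fasted control replicate 3). Called members were 0 in the 6 comparisons of the design under the alternatives tried, except for 1 in fasted against fed knockout livers with DESeq2, with only the compared groups and without both control replicates 3. In the mean fasting change the 1 call became 0 with no filter on low counts, limma-voom, limma on log2(TPM + 1) and on log2(TPM + 0.1), 4 with DESeq2, 2 with the replicate block, 5 without both control replicates 3 and 0 to 5 with single libraries left out. The cause was not tested. Replicate numbers showed no sign of pairing, though low correlations cannot exclude it. Of 18 same-numbered pairs of libraries, 3 had a correlation over 0.1 (range -0.284 to 0.184), beside 10 of 36 differently numbered pairs (range -0.21 to 0.312). The replicate block called 0 members in the 6 comparisons. In the fit of all libraries, the 10 members averaging under 1 CPM had standard errors of 0.476 to 1.18 on the log2 scale in the comparisons within 1 genotype or feeding state, which limits what could be detected.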

Other observations

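Myc, a transcription factor that drives growth, differed widely between the fed control libraries. Fasted knockout livers held 2.26, 3.5 and 2.82 CPM and fasted controls 3.76, 3.17 and 3.38 CPM. In fed mice it was at 3.03, 2.59 and 1.61 CPM in knockout and 2.14, 26.8 and 21.7 CPM in control livers. Fed control replicate 1 lay among the knockout libraries, and the log2 difference of knockout against control in fed livers missed the threshold (-2.80, SE 0.702, adjusted p = 0.683, edgeR). Gadd45b, a stress gene related to Gadd45a, was at 0.885, 1.66 and 1.84 CPM in fasted knockout and 1.88, 6.51 and 5.53 CPM in fasted control livers, without overlap (log2 difference -1.67, adjusted p = 0.521). Cdkn1a, which encodes the inhibitor p21 and was chosen after its values were seen, was at 8.14 CPM in fasted control replicate 3, 18.6 CPM in fed control replicate 3 and 1.82 to 5.53 CPM in the other 10 libraries.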
